A study of Mus musculus with 14 samples.

Results

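Leukocytes leave the blood by a sequence of contacts with the vessel wall, and 10 genes that encode the main partners of those contacts were followed here: Selp, Sele, Vcam1, Icam1, F11r, Selplg, Itgal, Itgam, Itgb2 and Itga4. They were chosen by name, as the probe sets with 1 listed gene symbol among these 10. All 10 were found, on 11 probe sets, among 22180 genes on 23521 probe sets, and Selplg was the 1 gene with more than 1 probe set. No filter on low signal was applied, so all 10 were tested.

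Gene expression had been profiled on biotin-labelled arrays in male mice that were 12 weeks old and had eaten a Western type diet, rich in fat and cholesterol, for the last 4 weeks. ApoE/LTbR-double deficient mice, which lacked apolipoprotein E and the lymphotoxin beta receptor, were set against ApoE deficient littermates, which lacked apolipoprotein E alone. The aorta was collected with its perivascular fat and gave 4 double-deficient and 4 ApoE-deficient arrays. CD115 is the product of Csf1r and marks blood monocytes; cells positive for it were isolated with magnetic beads and gave 3 double-deficient and 3 ApoE-deficient arrays. Replicates 3 and 4 of the ApoE-deficient CD115+ cells were pools of 2 littermates each, and the other samples were single preparations. The titles call the ApoE-deficient samples WT, but apolipoprotein E deficiency was common to all groups. The labels name no promoter or cell type for either deletion, and leave unstated if the same animals gave both tissues.

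Selectins on activated endothelium catch passing leukocytes through sugars on the glycoprotein PSGL-1. Chemokine signals then switch leukocyte integrins to a high-affinity state, in which LFA-1 and Mac-1 bind ICAM-1 and VLA-4 binds VCAM-1, and the cell stops and crawls to a junction. Endothelium induces the genes of E-selectin, VCAM-1 and ICAM-1 through the NF-kB factors, to which the lymphotoxin beta receptor also signals, and blood monocytes enter atherosclerotic arteries by these contacts.

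The promoters of Sele, Selp, Icam1 and Itgam are shown because the endothelial genes are known as NF-kB responsive and Itgam as a gene of the myeloid factor PU.1. Each window holds the 160 bases before the gene start in GRCm38.p6, from RefSeq, which listed a promoter for 6 of the 10 genes under the symbols used. Capitals mark matches on either strand to set letters. For NF-kB these are GGG, 5 bases of any kind and CC, a form of the site that is loose in its middle and fixed at its ends. For PU.1 they are GAGGAA, the core of its site. Stretches with other ends, such as ggaaattcc early in the Icam1 window, stay unmarked even where they resemble an NF-kB site.
Sele (chr1:164048074-164048233, plus strand): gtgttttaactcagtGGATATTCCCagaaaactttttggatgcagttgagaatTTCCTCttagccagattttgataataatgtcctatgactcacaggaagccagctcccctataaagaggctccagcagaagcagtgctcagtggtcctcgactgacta
Selp (chr1:164115104-164115263, plus strand): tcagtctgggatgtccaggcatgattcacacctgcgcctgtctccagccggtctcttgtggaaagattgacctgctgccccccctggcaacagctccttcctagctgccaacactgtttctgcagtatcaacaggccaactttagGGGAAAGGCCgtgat
Icam1 (chr9:21015780-21015939, plus strand): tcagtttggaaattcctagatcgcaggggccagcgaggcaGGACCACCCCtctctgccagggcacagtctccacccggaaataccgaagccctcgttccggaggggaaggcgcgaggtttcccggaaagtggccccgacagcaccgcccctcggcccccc
Itgam (chr7:128062480-128062639, plus strand): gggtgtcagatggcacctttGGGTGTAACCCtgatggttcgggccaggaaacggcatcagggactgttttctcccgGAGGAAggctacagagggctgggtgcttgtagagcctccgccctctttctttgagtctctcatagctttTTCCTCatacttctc
The loose NF-kB letters occurred in 5 of the 6 member windows, these 4 and F11r with 4 matches, but not in that of Itga4, and in 36.8% of all 32851 windows of this length. The PU.1 letters occurred at 2 places in Itgam and 1 each in Sele and F11r, and in 15.3% of all windows. The matches are descriptions of these letters and say nothing of binding. In Itgam, and at 1 place in F11r, the NF-kB letters matched on both strands at overlapping positions. The Sele window lies within the annotated span of a longer Sele transcript.

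Values are on the log2 scale with the median of each probe set within a tissue at 0. They show differences between arrays and, apart from the coarse sign of level below, give no comparison of levels across genes or across tissues. Differences are double-deficient minus ApoE-deficient. The number of arrays limits the precision. Ltbr, the deleted receptor gene, read -0.98, -1.10, -1.29 and -0.49 in double-deficient aortas and 0.63, 0.49, 0.70 and 0.89 in ApoE-deficient aortas. In CD115+ cells it read -0.07, -0.62 and -0.44 in double-deficient preparations and 0.55, 0.07 and 0.40 in ApoE-deficient preparations. In neither tissue did the groups overlap, and the differences were -1.64 (SE 0.17, adjusted p = 0.0679, limma) in aorta and -0.72 (SE 0.18, adjusted p = 0.976, limma) in CD115+ cells. Where its probe set lies relative to the deleted part is not in the labels. A coarse sign of level came from the rounding of the values, which tells whether all usable arrays stood at 8 or more on the log2 scale if the values had been stored as 32-bit numbers. By this sign the monocyte genes Csf1r and Lyz2 were at 8 or more on every array of both tissues, as were the smooth muscle genes Myh11 and Acta2 and the fat gene Adipoq. Of the adipocyte markers 6 of 8, and of the smooth muscle markers 4 of 11, stood that high on the CD115+ arrays, against 9.58% of all probe sets. Of the macrophage and monocyte markers 5 of 13 did so there, and of the endothelial markers 2 of 17. On the aorta arrays 7 of 13 macrophage and monocyte markers and 6 of 17 endothelial markers did, against 12.6% of all probe sets. So did 8 of 8 adipocyte and 6 of 11 smooth muscle markers on those arrays. The endothelial gene Cdh5 was at 8 or more on every aorta array and not on every CD115+ array. F11r was at 8 or more on every array of both tissues. Itgb2, Itga4 and 1 of the Selplg probe sets were so on every CD115+ array and not on every aorta array. The other members were not at 8 or more on every array of either tissue.

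In the aorta none of the 10 adhesion genes changed beyond the spread between mice. By limma, 0 of 10 passed the adjusted threshold of 0.05 (0.00451% of all genes were called, 1 gene, Ly6d, lower in double-deficient aortas and named here after its value was seen) and 0 of 10 had an unadjusted p under 0.05 (7.72% of all genes). The groups of no member separated, where they did so for 4.3% of all genes. The adjusted p ran from 0.651 to 0.979, and 4 differences were positive and 6 negative. Their median was -0.21, against 0.0083 over all genes. It was -0.02 without ApoE-deficient replicate 1, -0.34 without double-deficient replicate 1, -0.32 without ApoE-deficient replicate 3, and -0.10 and -0.08 without double-deficient replicates 2 and 4. For a single gene 4 against 4 arrays allow an exact two-sided permutation p of 0.0286 at best, and the members reached 0.114 to 0.857.

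**Figure D1:**
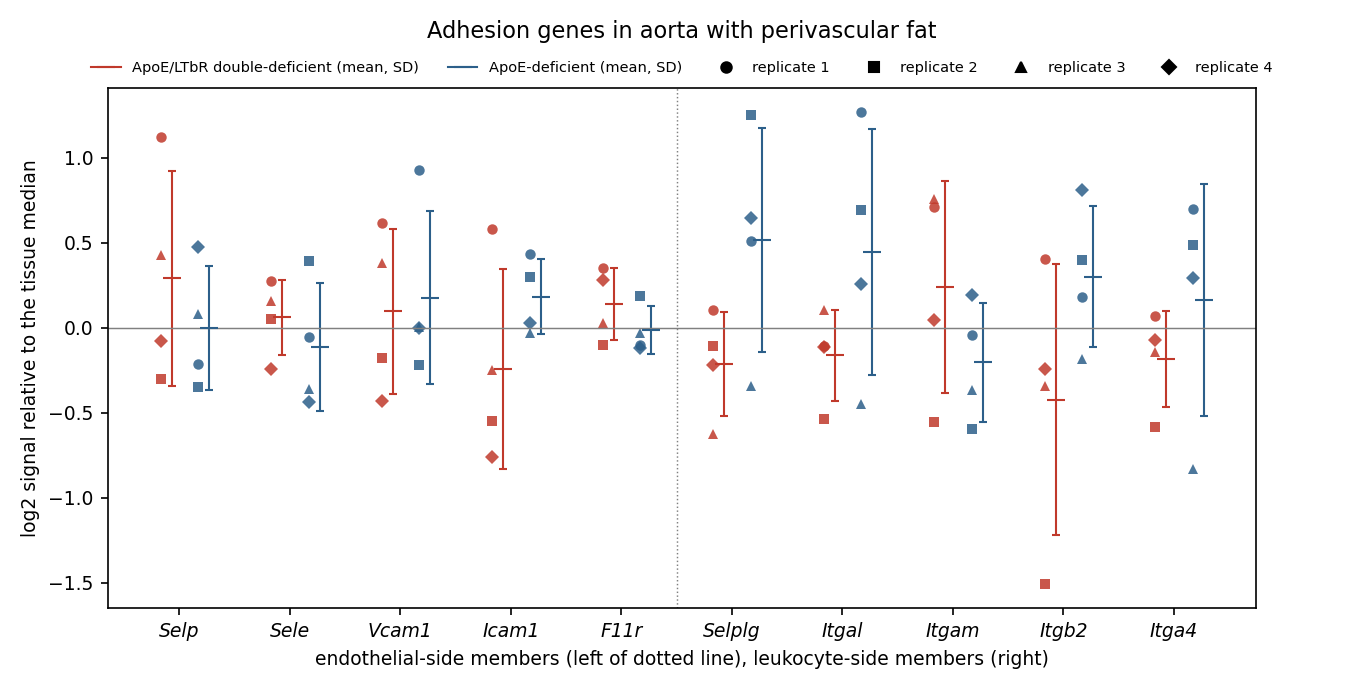
Log2 signal relative to the tissue median (vertical axis) of each adhesion gene (horizontal axis) on the 8 aorta arrays. Symbols are replicates, and lines with caps are means and SDs of 4 double-deficient (red) and 4 ApoE-deficient (blue) arrays. For every gene the red and blue points overlap.

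Among the selectins, Selp encodes P-selectin, which endothelium and platelets store in granules and bring to the surface when activated. Its aorta values were 1.12, -0.30, 0.43 and -0.08 in double-deficient aortas and -0.21, -0.35, 0.08 and 0.47 in ApoE-deficient aortas. Double-deficient replicate 1 was the highest array and the others of both groups overlapped. The difference was 0.29 (SE 0.32, 95% interval -0.45 to 1.04, adjusted p = 0.884, limma), and 0.018 without double-deficient replicate 1. Sele encodes E-selectin, which endothelium makes on activation by cytokines. It read 0.28, 0.05, 0.16 and -0.24 in double-deficient aortas and -0.05, 0.39, -0.36 and -0.44 in ApoE-deficient aortas. The ApoE-deficient arrays held both the highest and the lowest value, and the difference was 0.18 (SE 0.20, 95% interval -0.28 to 0.63, adjusted p = 0.887, limma).

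Of the integrin ligands of endothelium, Vcam1 encodes the ligand of VLA-4. It read 0.62, -0.18, 0.38 and -0.43 in double-deficient aortas and 0.93, -0.22, 0.002 and -0.002 in ApoE-deficient aortas. Replicate 1 was the highest array in each group, and the difference was -0.08 (SE 0.31, 95% interval -0.80 to 0.64, adjusted p = 0.979, limma). The interval reaches a 1.74-fold lower and a 1.56-fold higher signal in the double-deficient aortas. The sign of this small difference turned without double-deficient replicate 2 or 4 or ApoE-deficient replicate 1. Icam1 encodes the ligand of LFA-1 and Mac-1. It read 0.58, -0.55, -0.25 and -0.76 in double-deficient aortas and 0.44, 0.30, -0.03 and 0.03 in ApoE-deficient aortas. Of the double-deficient aortas 3 lay below all ApoE-deficient ones, and replicate 1 was the highest of all 8. The difference was -0.43 (SE 0.28, 95% interval -1.07 to 0.22, adjusted p = 0.77, limma). Without double-deficient replicate 1 it was -0.70 (SE 0.16, unadjusted p = 0.00392, adjusted p = 0.489, limma) and the groups no longer overlapped, as for 7.86% of all genes in that fit, where 7.85% had an unadjusted p under 0.05.

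F11r encodes JAM-A, a junction protein of endothelium that leukocytes and platelets also carry and that LFA-1 binds. Its aorta values were 0.35, -0.10, 0.03 and 0.28 in double-deficient aortas and -0.10, 0.19, -0.03 and -0.12 in ApoE-deficient aortas. They spanned the narrowest range of the 10 members, the groups overlapped, and the difference was 0.15 (SE 0.12, 95% interval -0.13 to 0.44, adjusted p = 0.834, limma).

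On the leukocyte side, Selplg encodes PSGL-1, the common ligand of the selectins. It read 0.11, -0.11, -0.62 and -0.22 in double-deficient aortas and 0.51, 1.25, -0.34 and 0.65 in ApoE-deficient aortas. ApoE-deficient replicates 1, 2 and 4 were above all double-deficient arrays, and ApoE-deficient replicate 3 was among the low ones. Selplg averaged -0.21 ± 0.31 over the double-deficient arrays, against 0.52 ± 0.66 over the ApoE-deficient ones (SD, n = 4 for both). The difference was -0.73 (SE 0.32, 95% interval -1.47 to 0.01, adjusted p = 0.651, limma), with an unadjusted p of 0.0533, the smallest of the 10. Its probe sets both showed this order: ApoE-deficient replicate 3 read -0.27 and -0.42, while the other ApoE-deficient arrays lay between 0.30 and 1.34. In bulk tissue, fewer cells of a type and less RNA per cell cannot be told apart.

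Itgal encodes the alpha chain of LFA-1, carried by lymphocytes and myeloid cells. It read -0.10, -0.54, 0.10 and -0.11 in double-deficient aortas and 1.27, 0.70, -0.45 and 0.26 in ApoE-deficient aortas. ApoE-deficient replicates 1, 2 and 4 were again the high arrays and replicate 3 was within the double-deficient range. The difference was -0.61 (SE 0.34, 95% interval -1.40 to 0.18, adjusted p = 0.721, limma). Itga4 encodes the alpha chain of VLA-4. It read 0.07, -0.58, -0.14 and -0.07 in double-deficient aortas and 0.70, 0.49, -0.83 and 0.29 in ApoE-deficient aortas, so that the same 3 ApoE-deficient arrays were high and replicate 3 was the lowest of all. The difference was -0.34 (SE 0.33, 95% interval -1.10 to 0.41, adjusted p = 0.859, limma).

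Itgam encodes the alpha chain of Mac-1, a marker of monocytes, macrophages and neutrophils. It read 0.71, -0.55, 0.76 and 0.04 in double-deficient aortas and -0.04, -0.60, -0.37 and 0.19 in ApoE-deficient aortas. Double-deficient replicates 1 and 3 were the highest arrays and the groups overlapped. The difference, the highest of the 10, was 0.44 (SE 0.32, 95% interval -0.29 to 1.17, adjusted p = 0.798, limma). Without double-deficient replicate 2 it was 0.71 (SE 0.25, unadjusted p = 0.0253, adjusted p = 0.677, limma), with groups that still overlapped, beside 6.76% of all genes under 0.05. Itgb2 encodes the beta chain that LFA-1 and Mac-1 share. It read 0.41, -1.51, -0.35 and -0.24 in double-deficient aortas and 0.18, 0.40, -0.18 and 0.81 in ApoE-deficient aortas. Double-deficient replicate 2 was far below the other arrays, and the difference was -0.72 (SE 0.40, 95% interval -1.64 to 0.19, adjusted p = 0.71, limma). Without that replicate it was -0.36. Without double-deficient replicate 1 it was -1.002 (SE 0.36, unadjusted p = 0.0288, adjusted p = 0.589, limma), with groups that did not overlap. In that fit the groups of 7.86% of all genes did not overlap and 7.85% had an unadjusted p under 0.05.

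Without ApoE-deficient replicate 3, the groups separated for Selplg at -1.02 (SE 0.23), Itga4 at -0.67 (SE 0.17) and Itgal at -0.91 (SE 0.26), all lower in double-deficient aortas. Their unadjusted p were 0.00327, 0.00629 and 0.00956 and their adjusted p 0.213, 0.252 and 0.301 (limma). In that fit 9.79% of all genes had an unadjusted p under 0.05 and the groups of 9.51% did not overlap. The T cell markers (10 of 12 listed measured) had a mean of -0.24, -0.32, -0.78 and -0.91 in double-deficient aortas and 1.09, 1.18, 0.04 and 0.69 in ApoE-deficient aortas. The B cell markers (9 of 10) had a mean of -0.40, -0.46, -0.17 and -0.18 in double-deficient aortas and 2.19, 2.31, -0.17 and 1.45 in ApoE-deficient aortas. Both lists were high in the same 3 ApoE-deficient arrays as Selplg, Itgal and Itga4 and lower in replicate 3. At an unadjusted p under 0.05 (limma), 3.81% of all genes were lower in double-deficient aortas. Of the T cell markers 8 of 10 were, and of the B cell markers 8 of 9. The part of these cells in the values of the 3 members was not tested. The macrophage and monocyte marker mean ran from -0.31 to 0.57 in double-deficient and from -0.17 to 0.33 in ApoE-deficient aortas. The endothelial marker mean ran from -0.08 to 0.20 in double-deficient and from -0.16 to 0.0089 in ApoE-deficient aortas, with a median difference of 0.20 and 16 of 17 markers positive. Natural killer markers had a median difference of -0.28, neutrophil markers -0.26, platelet markers -0.16, Ly6C-low monocyte markers -0.34, Ly6C-high monocyte markers 0.19, smooth muscle markers 0.31, adipocyte markers 0.15 and the 2 measured erythroid markers 0.12.

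The genes whose aorta profile was most like that of Selplg were Gpr183, a receptor that guides B cells and other leukocytes (Pearson r = 0.98, Spearman rho = 0.95), Arhgap45 (r = 0.98, rho = 0.88) and Ccdc82 (r = 0.98, rho = 1). These are the highest of 17163 candidates over 8 arrays that share tissue and genotype structure, and are a description with no test. Without the 2 arrays farthest from the Selplg median r was 0.96, 0.96 and 0.95.

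In CD115+ blood cells the adhesion genes did not differ by genotype beyond their spread either. By limma, 0 of 10 passed the adjusted threshold (0% of all genes were called) and 0 of 10 had an unadjusted p under 0.05 (4.39% of all genes). The groups of no member separated, against 9.16% of all genes. The adjusted p ran from 0.976 to 0.996, 5 differences were positive and 5 negative, and their median was 0.0045, against -0.011 over all genes. That median was 0.25 without double-deficient replicate 1 and -0.23 without double-deficient replicate 3. With 3 against 3 arrays an exact two-sided permutation test cannot go below 0.1, and the members gave 0.5 to 1. For every member but Sele the double-deficient preparations had a larger SD than the ApoE-deficient ones, by the widest margin for the leukocyte-side genes. This difference in spread was not tested.

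**Figure D2:**
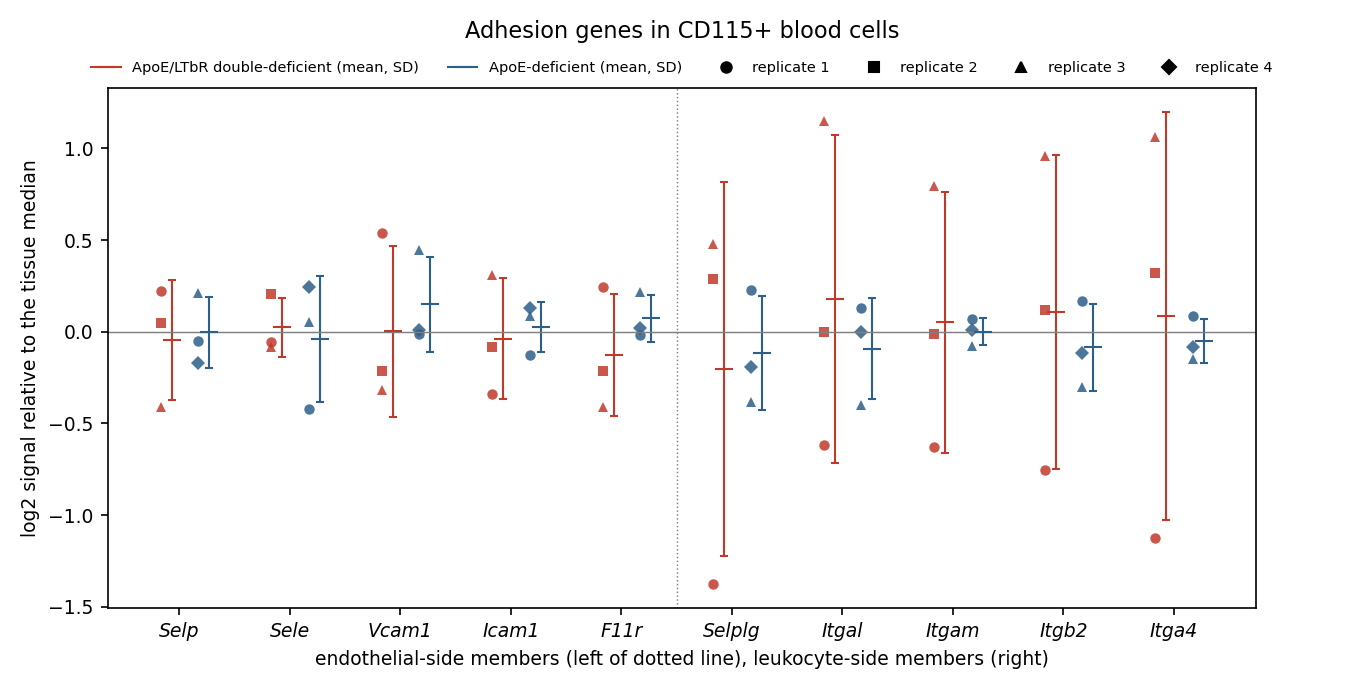
Log2 signal relative to the tissue median (vertical axis) of each adhesion gene (horizontal axis) on the 6 CD115+ arrays, with means and SDs of 3 double-deficient (red) and 3 ApoE-deficient (blue) arrays. The 5 leukocyte-side genes, right of the dotted line, run from double-deficient replicate 1 at the bottom to replicate 3 at the top, with the ApoE-deficient arrays between.

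Itga4 read -1.12, 0.32 and 1.06 in double-deficient preparations and 0.08, -0.15 and -0.08 in ApoE-deficient preparations. Itgal read -0.62, 0.00057 and 1.15 in double-deficient preparations and 0.13, -0.40 and -0.00057 in ApoE-deficient preparations. Itgb2 read -0.76, 0.12 and 0.96 in double-deficient preparations and 0.17, -0.30 and -0.12 in ApoE-deficient preparations. For all of these, double-deficient replicate 1 was below and replicate 3 above every ApoE-deficient preparation. Itgam read -0.63, -0.01 and 0.79 in double-deficient preparations and 0.07, -0.08 and 0.01 in ApoE-deficient preparations. Selplg read -1.38, 0.29 and 0.48 in double-deficient preparations and 0.23, -0.38 and -0.19 in ApoE-deficient preparations. The same held here, so that replicate 1 was below and replicate 3 above every ApoE-deficient preparation for all 5 leukocyte-side genes, for Icam1, and for 8.85% of all genes. This was looked for after the values had been seen, and the replicate numbers carry no sequence.

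The SD among double-deficient preparations was 1.11 for Itga4, against 0.12 among ApoE-deficient ones. For Itgam it was 0.71 against 0.08, and for Selplg, Itgb2 and Itgal it was 1.02, 0.86 and 0.90 in double-deficient against 0.31, 0.24 and 0.28 in ApoE-deficient preparations. Over all genes the median SD was 0.106 in double-deficient and 0.0856 in ApoE-deficient preparations. The pooling of 2 of the 3 ApoE-deficient preparations lies on 1 side of this comparison, so that pooling and genotype cannot be told apart. The differences were 0.14 (SE 0.54, 95% interval -1.19 to 1.46, adjusted p = 0.992, limma) for Itga4 and 0.27 (SE 0.45, 95% interval -0.84 to 1.38, adjusted p = 0.979, limma) for Itgal. They were 0.19 (SE 0.43, 95% interval -0.86 to 1.25, adjusted p = 0.983, limma) for Itgb2, 0.05 (SE 0.35, 95% interval -0.80 to 0.90, adjusted p = 0.996, limma) for Itgam and -0.09 (SE 0.51, 95% interval -1.35 to 1.17, adjusted p = 0.995, limma) for Selplg. The interval for Itga4 reaches from a 2.27-fold lower to a 2.75-fold higher signal in double-deficient preparations. Without double-deficient replicate 3 the Itga4, Itgal, Itgb2 and Itgam differences were -0.35, -0.22, -0.23 and -0.32. Without double-deficient replicate 1 they were 0.74, 0.67, 0.62 and 0.39, and that of Selplg was 0.50.

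Among double-deficient preparations the endothelial-side genes varied less than the leukocyte-side ones. Vcam1 read 0.54, -0.21 and -0.32 in double-deficient preparations and -0.01, 0.45 and 0.01 in ApoE-deficient preparations, and its difference was -0.15 (SE 0.26, 95% interval -0.78 to 0.49, adjusted p = 0.979, limma). Icam1, which monocytes also make, read -0.34, -0.08 and 0.31 in double-deficient preparations and -0.13, 0.08 and 0.13 in ApoE-deficient preparations, and its difference was -0.07 (SE 0.17, 95% interval -0.50 to 0.36, adjusted p = 0.988, limma). For both, double-deficient arrays held the highest and the lowest value. Sele read -0.06, 0.21 and -0.08 in double-deficient preparations and -0.42, 0.06 and 0.25 in ApoE-deficient preparations, with a difference of 0.06 (SE 0.19, 95% interval -0.39 to 0.52, adjusted p = 0.988, limma).

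Selp, which in blood is a gene of platelets, read 0.22, 0.05 and -0.41 in double-deficient preparations and -0.05, 0.21 and -0.17 in ApoE-deficient preparations. The groups overlapped, and the difference was -0.04 (SE 0.19, 95% interval -0.50 to 0.42, adjusted p = 0.994, limma). The platelet markers (9 of 11 listed) had a mean of -0.70, 1.78 and -0.42 in double-deficient preparations and 0.34, 0.23 and -0.23 in ApoE-deficient preparations. Pf4, a platelet chemokine, read -0.13, 1.19 and -0.62 in double-deficient preparations, against -0.24 to 0.16 in ApoE-deficient ones. Itga2b, the alpha chain of the platelet fibrinogen receptor, read 1.22 in double-deficient replicate 2 and -0.16 to 0.28 on the other 5 arrays. Double-deficient replicate 2 was thus the highest array for platelet genes, while its Selp value of 0.05 lay within the range of the others.

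F11r read 0.24, -0.22 and -0.41 in double-deficient preparations and -0.02, 0.22 and 0.02 in ApoE-deficient preparations. Double-deficient replicate 1 was the highest array and replicate 3 the lowest, as for Vcam1 and Selp, and the difference was -0.20 (SE 0.18, 95% interval -0.63 to 0.24, adjusted p = 0.976, limma), with the smallest unadjusted p of the 10 in these cells (0.303). Without double-deficient replicate 1 it was -0.38 (SE 0.10, adjusted p = 0.171, limma). In that fit the groups of Vcam1, Selplg, Itga4 and F11r did not overlap and their unadjusted p were under 0.05, beside 33% of all genes not overlapping and 16.2% under 0.05. The genes most like F11r over the 6 arrays were Maoa, a monoamine oxidase, Ppp1r14a, an inhibitor of myosin phosphatase known from smooth muscle, and Cavin1, a coat protein of caveolae abundant in fat and muscle. Each had r = 0.996 and rho = 1, the highest r of 17163 candidates, given with no test. Without the 2 arrays farthest from the F11r median r was 0.988, 0.994 and 0.995.

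Smooth muscle markers (all 11 listed) had a mean of 0.28, -0.28 and -0.24 in double-deficient preparations and -0.0091, 0.13 and 0.05 in ApoE-deficient preparations. Adipocyte markers (8 of 9) had a mean of 0.29, -0.31 and -0.25 in double-deficient preparations and -0.07, 0.11 and 0.11 in ApoE-deficient preparations. On both lists double-deficient replicate 1 was the highest array, where the 5 leukocyte-side genes were lowest and F11r highest, and replicates 2 and 3 were the lowest. Endothelial markers (17 of 17) had a mean of 0.22, -0.20 and -0.21 in double-deficient preparations and 0.02, 0.17 and -0.04 in ApoE-deficient preparations, again with double-deficient replicate 1 highest. The part of such cells or of their RNA in the values of the 10 genes was not tested. B cell markers had a mean of -0.30, 1.89 and 1.05 in double-deficient preparations and 0.30, -0.88 and -0.82 in ApoE-deficient preparations, and T cell markers a median difference of 0.37 with 10 of 10 positive. Ly6C-high monocyte markers had a median difference of -0.70 with 6 of 6 negative. Of these, 3 had an unadjusted p under 0.05 (limma) and the groups of 4 did not overlap, beside 2.33% and 5.23% of all genes in that direction. The list mean was -0.83 to -0.13 in double-deficient and 0.05 to 0.67 in ApoE-deficient preparations. Median differences were 0.12 for Ly6C-low monocyte markers, -0.14 for macrophage and monocyte markers, 0.16 for neutrophil, 0.04 for natural killer and 0.09 for erythroid markers.

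**Figure D3:**
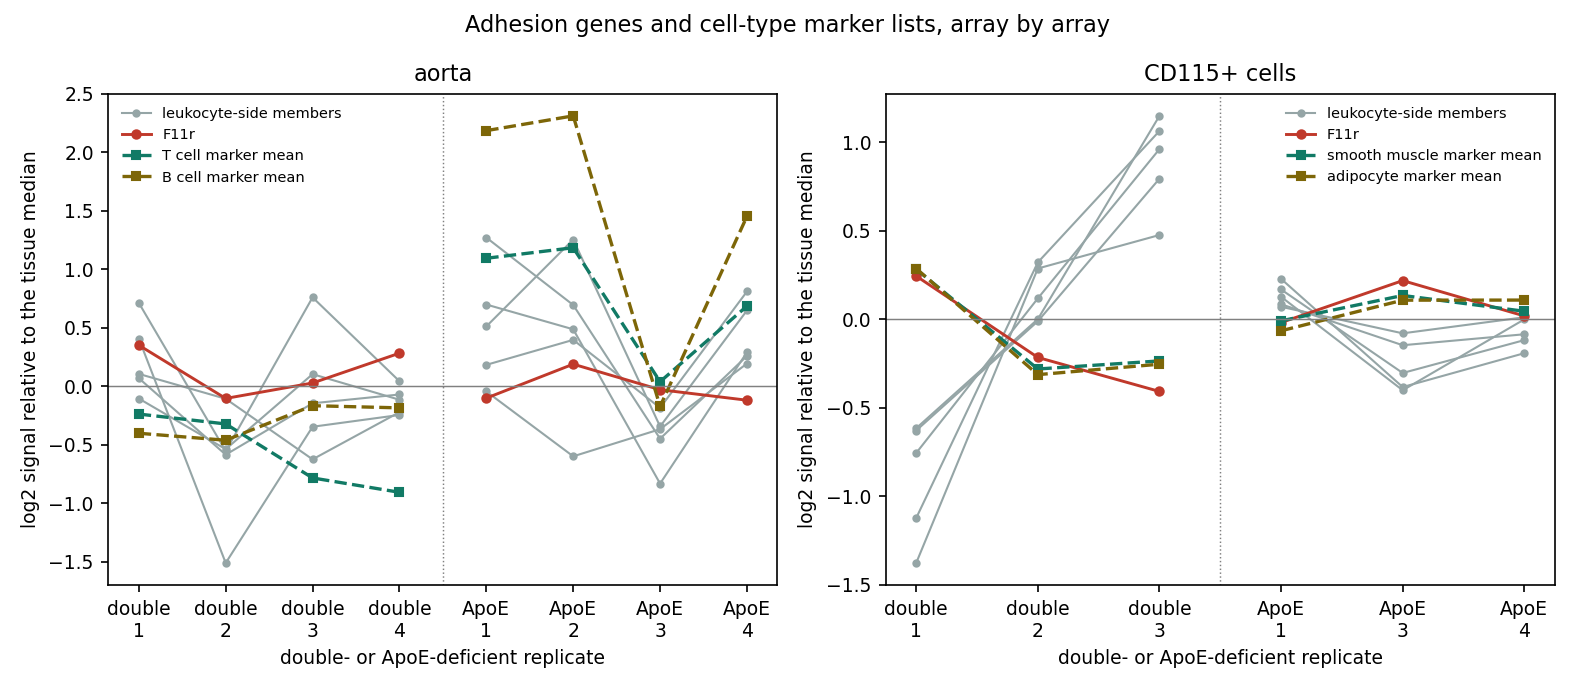
Log2 signal relative to the tissue median (vertical axis) on each array (horizontal axis, double-deficient left of the dotted line) for the 5 leukocyte-side members (grey), F11r (red) and the means of marker lists (dashed). In aorta the T and B cell means are lowest among ApoE-deficient arrays in replicate 3, and in CD115+ cells the smooth muscle and adipocyte means are highest in double-deficient replicate 1, where the grey lines are lowest.

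The difference between tissues in the genotype effect was tested in 1 fit of all 14 arrays. None of the 10 genes passed (adjusted p = 0.809 to 0.995, limma; 0% of all genes were called), and 0 of 10 had an unadjusted p under 0.05, beside 6.9% of all genes. The smallest unadjusted p was that of F11r (0.131), whose aorta difference exceeded its CD115+ difference by 0.35 (SE 0.22, 95% interval -0.12 to 0.83). For Itgb2 and Itgal the aorta difference minus the CD115+ difference was -0.92 (95% interval -2.29 to 0.46) and -0.88 (95% interval -2.17 to 0.41). Without double-deficient CD115+ replicate 1, 5 members had an unadjusted p under 0.05 (Selplg, Itgb2, Itga4, Itgal and F11r), at adjusted p of 0.276 to 0.446, beside 11.1% of all genes under 0.05 in that fit.

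**Figure D4:**
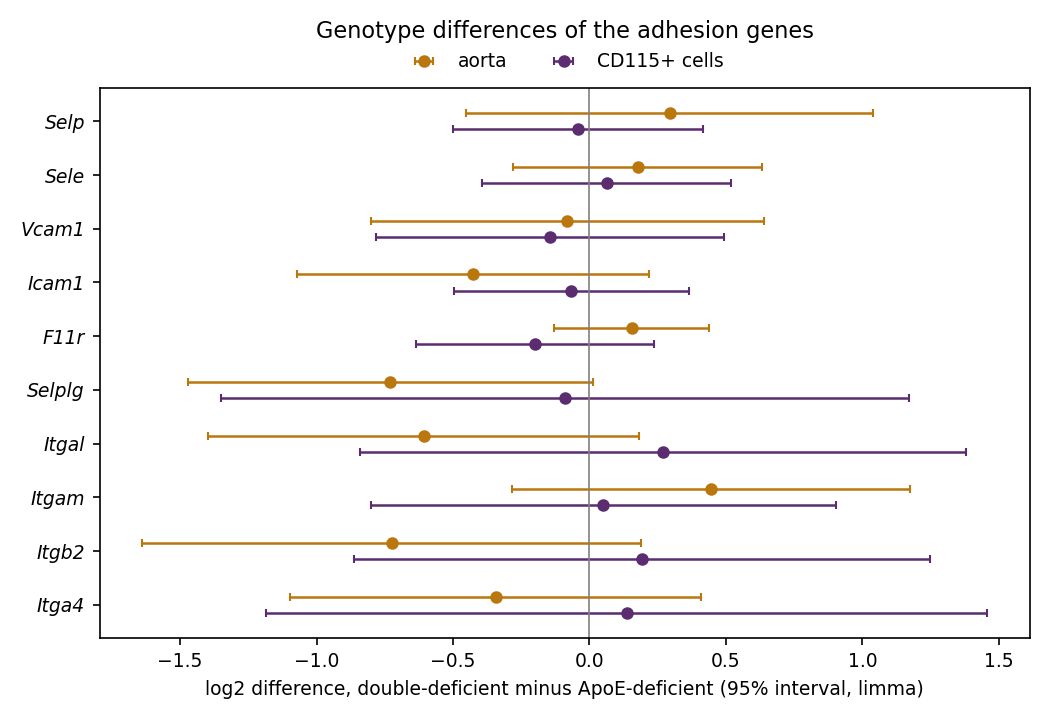
Log2 difference, double-deficient minus ApoE-deficient (horizontal axis), with its 95% interval from limma for each adhesion gene (vertical axis) in aorta (4 against 4 arrays) and CD115+ cells (3 against 3). Every interval includes 0, and those of the leukocyte-side genes in CD115+ cells are among the widest.

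The 95% intervals lay wholly within 1 of 0 on the log2 scale for 3 of 10 members in aorta and 6 of 10 in CD115+ cells. In aorta these were Vcam1, Sele and F11r. In CD115+ cells they were Vcam1, Icam1, Sele, Selp, Itgam and F11r. Half-widths were 0.28 to 0.92 for aorta, and 0.43 to 1.32 for CD115+ cells, so a p above the threshold does not show that the genotypes were alike.

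Of the other genes of the adhesion cascade, 73 measured genes in 7 lists by role, 0 passed the adjusted threshold in either direction in either tissue. In aorta 3 were higher and 10 lower at an unadjusted p under 0.05, 17.8% of the 73 beside 7.72% of all genes (3.91% higher and 3.81% lower). Their groups did not overlap for 3 higher and 2 lower genes, beside 2.19% and 2.11% of all genes. In CD115+ cells 1 was higher and 1 lower, 2.74% beside 4.39% of all genes (2.06% higher and 2.33% lower). Groups did not overlap for 1 higher and 2 lower genes, beside 3.93% and 5.23% of all genes. The lists were chosen with earlier results of these data known, so these shares are a description and not a test.

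The genes listed under integrin activation inside leukocytes held 7 of the 10 lower ones in aorta. Their median difference was -0.53 with 13 of 15 negative, against a median of 0.0083 over all genes, of which 52.8% were positive. Beside it, lymphocyte marker lists had medians of -1.38 for T cells (10 of 10 negative), -1.72 for B cells (9 of 9) and -0.28 for natural killer cells (8 of 8), and their part in this list was not tested. Rassf5, which encodes the RAPL adaptor of LFA-1, read -0.25, -0.04, -0.21 and -0.07 in double-deficient aortas and 0.66, 0.64, 0.04 and 0.25 in ApoE-deficient aortas. The groups did not overlap, and the difference was -0.53 (SE 0.15, unadjusted p = 0.00739). Cytip, a regulator that binds cytohesin, read -0.12, 0.02, -0.27 and -0.17 in double-deficient aortas and 1.21, 1.27, -0.02 and 0.85 in ApoE-deficient aortas. ApoE-deficient replicates 1, 2 and 4 were high and replicate 3 was within the double-deficient range, the order seen for Selplg, and the difference was -0.97 (SE 0.27, unadjusted p = 0.00714). The mean of the list was -0.31 to 0.02 in double-deficient aortas, against 0.70, 0.72, -0.20 and 0.24 in ApoE-deficient ones. In CD115+ cells 14 of the 15 were positive with a median of 0.18, where 44.7% of all genes were positive. Their mean was -0.54, 0.33 and 0.63 in double-deficient replicates 1 to 3, the order of the leukocyte-side genes, and -0.22 to 0.12 in ApoE-deficient preparations. Lymphocyte marker lists had medians there of 1.44 for B cells (9 of 9 positive), 0.37 for T cells (10 of 10) and 0.04 for natural killer cells (5 of 8). The part of these cells in the list was not tested. Cyth1, a cytohesin that acts on the beta chain of LFA-1, differed there by 0.59 (SE 0.22, unadjusted p = 0.0357) and Skap2 by -0.17 (SE 0.10, unadjusted p = 0.164).

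Among enzymes that build selectin ligands, Gcnt1, which makes the branched core of the PSGL-1 sugar, read -0.03, -0.18, -0.12 and -0.16 in double-deficient aortas and 0.03, 1.01, 1.09 and 0.64 in ApoE-deficient aortas. The groups did not overlap, with ApoE-deficient replicate 3 the highest array here, and the difference was -0.82 (SE 0.22, unadjusted p = 0.00601). Chst4, a sulphotransferase of high endothelial venules, differed by -0.83 (SE 0.23, unadjusted p = 0.00717). The other 8 enzymes did not pass an unadjusted p of 0.05 in aorta, and the list median was -0.05. In CD115+ cells Tpst2, which sulphates PSGL-1 on tyrosine, differed by -0.44 (SE 0.15, unadjusted p = 0.0276) and Chst4 by 0.10 (SE 0.07, unadjusted p = 0.224). Of rolling ligands other than PSGL-1, Madcam1, the ligand of the alpha4 beta7 integrin, differed in aorta by -0.49 (SE 0.24, unadjusted p = 0.0782) and Glg1, an E-selectin ligand, by 0.23 (SE 0.13, unadjusted p = 0.104). In CD115+ cells Cd24a differed by 0.34 (SE 0.18, unadjusted p = 0.116) and the sialomucin gene Cd34 by -0.39 (SE 0.29, unadjusted p = 0.234).

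Of 13 other integrin chains, 12 had a positive difference in aorta, with a median of 0.17, where 52.8% of all genes were positive. Smooth muscle markers had a median of 0.31 (10 of 11 positive) and endothelial markers 0.20 (16 of 17), and their part in it was not tested. Itga1, the alpha chain of a collagen receptor, read 0.39, 0.27, 0.08 and 0.14 in double-deficient aortas and -0.08, -0.27, -0.18 and -0.44 in ApoE-deficient aortas, without overlap, and differed by 0.46 (SE 0.10, unadjusted p = 0.00221). Itgb7, which pairs with the Itga4 product in lymphocytes, was the 1 negative chain. It read -0.19, -0.23, 0.10 and -0.10 in double-deficient aortas and 0.62, 1.17, -0.21 and 0.52 in ApoE-deficient aortas, with ApoE-deficient replicate 3 again low, and differed by -0.63 (SE 0.26, unadjusted p = 0.0428). In CD115+ cells the median was 0.05, Itga1 differed by -0.43 (SE 0.19, unadjusted p = 0.0652) and Itgb1 by 0.15 (SE 0.09, unadjusted p = 0.133).

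Junction genes had 10 of 15 positive differences in aorta (median 0.11), beside 52.8% of all genes and the endothelial marker median of 0.20. Tjp1, a scaffold of tight junctions, differed by 0.43 (SE 0.15, unadjusted p = 0.0211) and Ocln, a tight junction membrane protein, by 0.19 (SE 0.07, unadjusted p = 0.0312), each with groups that did not overlap. In CD115+ cells 10 of 15 were negative (median -0.10), where 44.7% of all genes were positive. Marker medians there were -0.12 for endothelium (15 of 17 negative), -0.17 for smooth muscle (11 of 11) and -0.13 for adipocytes (8 of 8). Their part in the junction genes was not tested. Pecam1 differed there by 0.20 (SE 0.09, unadjusted p = 0.0679, limma) and Cdh5, the cadherin of endothelium, by -0.39 (SE 0.18, unadjusted p = 0.0769, limma). The 4 other integrin ligands had a median of -0.04 in aorta, where fibronectin (Fn1) differed by 0.28 (SE 0.13, unadjusted p = 0.0574) and Icam4 by -0.24 (SE 0.25, unadjusted p = 0.364). In CD115+ cells their median was -0.0081, with Icam2 at 0.40 (SE 0.17, unadjusted p = 0.0606) and Fn1 at -0.22 (SE 0.18, unadjusted p = 0.27). The 8 chemokines and receptors had medians of -0.05 and -0.0089 in aorta and CD115+ cells. In aorta Ccl5, a chemokine of T cells and platelets, differed by -1.25 (SE 0.55, unadjusted p = 0.0534) and the neutrophil receptor gene Cxcr2 by -0.94 (SE 0.50, unadjusted p = 0.0986). In CD115+ cells Ccr2, the receptor of classical monocytes for CCL2, differed by -0.50 (SE 0.25, unadjusted p = 0.0933) and Cxcl1 by 0.40 (SE 0.25, unadjusted p = 0.168).

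**Figure D5:**
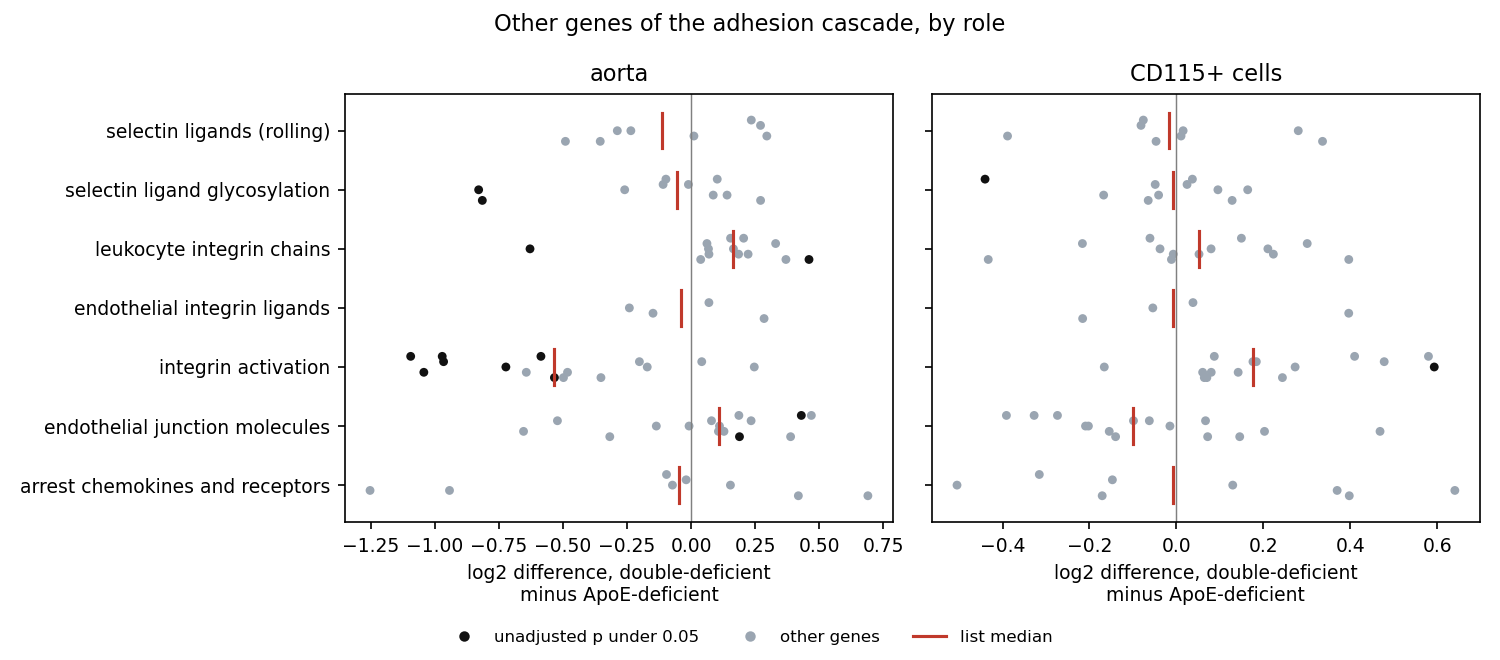
Log2 difference, double-deficient minus ApoE-deficient (horizontal axis), of 73 other genes of the adhesion cascade by role (vertical axis) in aorta (left) and CD115+ cells (right), whose horizontal scales differ. Each point is a gene, black at an unadjusted p under 0.05, and the red line is the list median, which for integrin activation is -0.53 in aorta and 0.18 in CD115+ cells.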

How the data were processed

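RNA from 8 aortas with fat and 6 preparations of CD115+ cells was labelled with biotin and hybridised to arrays, as the labels' protocols state. The authors deposited log2 values for 33793 probe sets on 14 arrays; that the base is 2 is assumed here, and the sources used here do not give the normalization, the summarisation or the log base. The median of every probe set over the arrays of each tissue was 0 within 1e-06. The deposited values are thus centred per tissue and hold no level beyond the coarse sign in their rounding. No filter on level was therefore possible. Array medians over genes ran from -0.0115 to 0.0067.

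Platform annotation gave 23521 probe sets 1 symbol, 1814 several and 8458 none; only the first kind was used, averaged to 22180 genes. Each tissue was fitted alone by lmFit and eBayes (limma 3.58.1, R 4.3.3), with p-values adjusted by Benjamini-Hochberg over all genes (threshold 0.05), and all 14 arrays were fitted together for the difference between tissues. The code was checked on simulated data with planted changes and independent normal spread per gene, which hold no shift shared by many genes. The rounding of the values gave the bound on level, for probe sets with at least 5 arrays within 2 of the median. The members, lists and tests were chosen with earlier results of these data known. Named are all members, Ltbr, the 2 other cascade genes of smallest p per role and tissue, platelet genes Pf4 and Itga2b, and the 3 genes most like the member of smallest p per tissue, without unnamed gene models, small RNAs, odorant-type receptors and pseudogenes. Replicates are separate samples per the labels; p-values measure the spread between them. Alternatives covered the spread model, array weights, probe set choice, scaling, a filter, pairing, pools and each array left out.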

Additional observations from a re-analysis of the deposited data

How the results depend on the processing

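No member reached an adjusted p of 0.05 under any alternative (lowest adjusted p 0.213 over 17 settings in aorta, 0.171 over 16 in CD115+ cells and 0.276 over 19 for the difference between tissues, limma). Genes called in aorta numbered 1 as reported, 0 with robust empirical Bayes, array weights or the probe set of largest SD, 4 with the lowest-SD genes (0.25 of all) left out and 19 in 1 fit of all 14 arrays. Members with an unadjusted p under 0.05 in aorta numbered 0 as reported and 1, Selplg, with array weights, the probe set of largest SD, quantile normalization, the lowest-SD genes (0.25 of all) left out or the replicate block, beside 7.64% to 8.5% of all genes in those fits. In the block fit the Selplg p was 0.0163 (adjusted 0.518) and 1 gene was called. Same-numbered aorta samples correlated at 0.17, -0.15, -0.14 and 0.06 and CD115+ ones at -0.47 and -0.29. Samples of unlike number spanned -0.14 to 0.25 (aorta) and -0.18 to 0.35 (CD115+). With few pairs and values centred over both groups, these correlations cannot decide if the numbers pair the samples. With array weights 1 member, F11r, had an unadjusted p under 0.05 for the difference between tissues, beside 12.3% of all genes.

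Signs in CD115+ cells turned for Selplg with array weights (0.23) and quantile normalization (0.024) and for Icam1 with the replicate block (0.0071). Without the pooled preparations, where the lone ApoE-deficient sample is assumed to vary like the others, they turned for Vcam1 (0.015), Icam1 (0.089), Selp (0.0055), Itgb2 (-0.060) and Itgam (-0.019), and the groups of 1 of 10 members, Sele, did not overlap, beside 41.2% of all genes. The causes were not tested.

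Leaving out each array in turn gave 0 to 74 genes called in aorta (74 without ApoE-deficient replicate 3), and 0 to 3 members not overlapping and 0 to 3 with an unadjusted p under 0.05, beside 9.51% and 9.79% of all genes at the highest. In CD115+ cells these were 0 to 4 and 0 to 4, the highest without double-deficient replicate 1, beside 33% and 16.2% of all genes. For the difference between tissues 0 to 58 genes were called and 0 to 5 members had an unadjusted p under 0.05, beside 11.1% of all genes at the highest. Vcam1 in aorta ranged from -0.25 to 0.17. In CD115+ cells the ranges were -0.41 to 0.014 for Vcam1, -0.24 to 0.085 for Icam1, -0.13 to 0.21 for Sele, -0.18 to 0.14 for Selp, -0.43 to 0.50 for Selplg, -0.23 to 0.62 for Itgb2, -0.35 to 0.74 for Itga4, -0.32 to 0.39 for Itgam and -0.22 to 0.67 for Itgal. For the difference between tissues they were -0.11 to 0.33 for Vcam1, -0.029 to 0.30 for Sele and -1.09 to 0.0082 for Itga4. Centred values give no signal over background, so what dim probes limit was not assessed beyond the bound on level.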

Other observations

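LFA-1 and Mac-1 share the Itgb2 chain and differ in their alpha chains, Itgal and Itgam. Itgal minus Itgam, chosen after the values were seen, was -0.82, 0.016, -0.66 and -0.16 in double-deficient aortas and 1.32, 1.29, -0.08 and 0.07 in ApoE-deficient ones. The means were -0.40 ± 0.40 and 0.65 ± 0.76 (SD, n = 4 each), and the groups overlapped. In CD115+ cells the double-deficient preparations gave 0.013, 0.012 and 0.36, against 0.06, -0.32 and -0.012 for ApoE-deficient ones. No test was made, and the aorta gap rests on ApoE-deficient replicates 1 and 2.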
